A study of Mus musculus with 12 samples.

Results

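The 7 genes described here are targets and feedback regulators of the transforming growth factor β (TGFβ) pathway: Pmepa1, Skil, Adam12, Ctgf, Rhob, Sphk1 and Hmga2. They were taken as known SMAD targets or feedback genes listed in the mRNA tables of the series, so their ratios chose them and are given as a description, with no test. The tables together list 2091 genes. Of the 7, 2 were listed at day 2, 7 at day 4 and 4 at day 8, each time among 998 genes. The groups were AKR-2B cells, an established mouse fibroblast line, grown as colonies in soft agar with TGFβ (25 ng/mL) for 2, 4 or 8 days, and the same cells and medium with vehicle for the same times. Each condition and day had 1 mRNA library and 1 miRNA library, so no difference has a replicate check. All groups share the line and the semi-solid medium, so the data hold no attached culture. In such bulk samples, fewer cells of a type and less RNA per cell cannot be told apart.

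TGFβ binds a complex of type II and type I receptor kinases, which phosphorylate SMAD2 and SMAD3; these join SMAD4, enter the nucleus and act on target promoters together with other factors such as AP-1. Among the first targets are genes whose products dampen the same signal, which closes a negative feedback loop. In fibroblasts the pathway is known for driving matrix production, and AKR-2B cells are known for forming colonies in soft agar when TGFβ is given.

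The mRNA values are the authors' own ratios between the 2 libraries of a day, and the table headers do not say which library is the numerator. Of the 2994 ratios, 99.9% were, in lowest terms, an odd whole number over an odd whole number, the form of a read count plus 0.5 in each library with no scaling for depth. Read in that form, the numerator and denominator give the fewest reads that each library can have had for the gene, and the true counts are these or larger. Each table held 499 genes above 1 and 499 below. The lowest ratio above 1 was 3 at day 2, shared by 186 genes, and 5 at days 4 and 8, shared by 82 and 108 genes. The highest ratio below 1 lay 7-fold below 1 at each day. A gene that is not listed is therefore not shown to be unchanged. Summed over the listed genes, the numerator and denominator libraries of day 2 had at least 101915 and 238335 reads, those of day 4 at least 522969 and 191354, and those of day 8 at least 611834 and 292783.

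All 7 genes lay above 1 wherever they were listed, in 13 of 13 entries. By day these were 2 of 2, then 7 of 7, then 4 of 4, in tables where 50.0% of the genes lay above 1 at each day. For some genes the ratio requires at least 20 reads in 1 library (a larger term of at least 41). Of those, 30.1%, 53.9% and 46.0% lay above 1 in day order, and 69.9%, 46.1% and 54.0% lay below. Genes outside that set may have as many reads, where the fraction reduces. Since the 7 genes were chosen from these values, nothing is read from the counts. If the ratios are TGFβ over vehicle, all 7 genes had more reads with TGFβ. If they are vehicle over TGFβ, all had fewer. The relative depth of the libraries is not known and stays in each ratio.

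**Figure D1:**
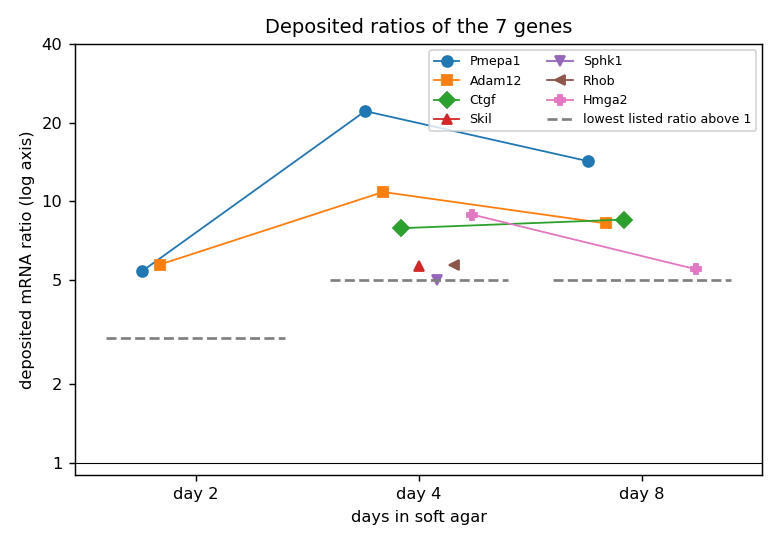
Deposited mRNA ratio (log axis) of each of the 7 genes at days 2, 4 and 8 in soft agar, 1 ratio per gene and day, with lines joining the days of a gene; the dashed lines mark the lowest ratio above 1 in each table. Pmepa1 reached 22.1 at day 4, while Sphk1, at 5.02, sat next to the dashed line of that day.

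The feedback genes among the 7 are Pmepa1 and Skil. Pmepa1 (2:173224458-173276533, minus strand, GRCm38) encodes a membrane protein that holds receptor-activated SMADs away from the receptor. The authors' deposited table gives it ratios of 5.41 on day 2, 22.1 on day 4 and 14.2 on day 8. The fewest reads these allow in the numerator and denominator libraries are 6857 and 1268 (day 2), 10309 and 465 (day 4) and 13036 and 915 (day 8). With that many reads, the counting error of the log2 ratio is at most 0.0441, 0.0684 and 0.0493 (SE). The day 4 ratio was thus 4.10 times the day 2 ratio, far beyond counting error, although a change in relative depth between the days stays in that factor. Pmepa1 stood at place 125 from the top of the day 2 table, 61 at day 4 and 105 at day 8.

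Skil (3:31095058-31122577, plus strand), which encodes SnoN, a corepressor that binds SMADs on their target genes, was listed at day 4 alone. Its ratio in the authors' deposited table was 5.64, which allows no fewer than 2268 and 402 reads in the numerator and denominator libraries. This places it near the lower end of the table, at 1.13 times the lowest listed ratio above 1. At day 8 the table also begins at 5, so a ratio just below that would not be listed.

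Among the genes that carry out the response, Adam12 was listed at every day. Adam12 (7:133883199-134232146, minus strand) encodes a membrane-bound metalloprotease of the disintegrin family and is widely used as a TGFβ-induced gene in fibroblasts. Its ratios were 5.73, 10.9 and 8.24 in day order (the authors' deposited table). The numerator and denominator libraries had at least 5398 and 941 reads on day 2; those of day 4 had 7218 and 664 or more, and those of day 8 had 6717 and 815 or more. Its ratio therefore followed the same order of days as that of Pmepa1, with a smaller span of 1.89-fold between days 2 and 4. A change in relative depth between the days stays in that order and span for both genes. On the same strand, Gm23631, Gm19514 and A130023I24Rik overlap Adam12. How the authors assigned shared reads is not given in the sources used here.

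Ctgf (10:24595442-24598683, plus strand; now named Ccn2) encodes a secreted matricellular protein that binds growth factors and integrins. Its ratio in the authors' deposited table was 7.90 at day 4 and 8.52 at day 8. The fewest reads were 3644 and 461 in the numerator and denominator libraries at day 4, and 8466 and 993 at day 8. The 2 days differed by 0.11 on the log2 scale with a counting error of at most 0.0862 (SE). A change in relative depth between the days stays in that difference. Relative to Adam12, where depth cancels, the log2 ratio of Ctgf rose by 0.509 from day 4 to day 8. The counting error of that shift was at most 0.117 (SE). Another gene on the other strand, Gm15270, overlaps Ctgf, and whether the authors counted by strand is not given in the sources used here.

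Rhob and Sphk1 were listed at day 4 alone, like Skil. Rhob (12:8497661-8500009, minus strand) encodes a small GTPase of endosomes and the actin cytoskeleton that is made quickly after growth factor and stress signals. Its ratio in the authors' deposited table was 5.70, from no fewer than 2790 and 489 reads in the numerator and denominator libraries. Sphk1 (11:116530925-116536674, plus strand) encodes sphingosine kinase 1, which makes the lipid signal sphingosine-1-phosphate. Its ratio in the authors' deposited table was 5.02, from no fewer than 218 and 43 reads, the smallest minimum of the 7 genes. Sphk1 was at 1.00 times the lowest listed ratio of day 4 and had a counting error of up to 0.240 on the log2 scale (SE), so counting error alone could move it across the lower end of the table. It too shares its locus with a gene on the other strand, Gm29292.

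Hmga2 (10:120361275-120476469, minus strand) encodes a small chromatin protein that bends AT-rich DNA and is induced by TGFβ through SMADs in epithelial cells. The authors' deposited table gives it a ratio of 8.90 on day 4 and 5.51 on day 8. It had the largest minimum of reads of the 7 genes, no fewer than 39509 and 4437 in the numerator and denominator libraries at day 4, and 28227 and 5126 at day 8. The log2 ratio of day 8 minus that of day 4 was -0.69, with a counting error of at most 0.0316 (SE). Here too, a change in relative depth between the days stays in the difference. A pseudogene, Hmga2-ps1, was listed beside it on day 4 (7.12, the authors' deposited table) with no fewer than 601 and 84 reads. Reads of the gene and such a copy can be split by the authors' counting, so the pseudogene's value is uncertain. On the other strand, 1700006J14Rik and 9230105E05Rik overlap Hmga2. The host locus also holds miR-763, which had 0 reads over all 6 miRNA libraries.

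**Figure D2:**
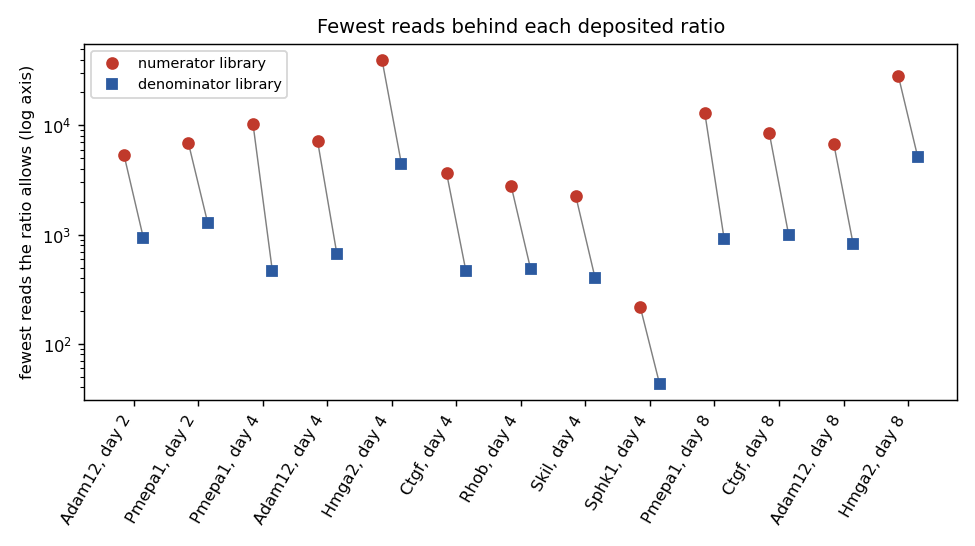
Fewest reads (log axis) that each deposited ratio allows in the numerator library (circle) and the denominator library (square), for each gene and day at which it was listed, ordered by day and by ratio. Hmga2 has the largest minimum of reads and Sphk1, with 218 and 43, the smallest.

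Because the ratios carry no scaling for depth, the size of a ratio cannot be compared between days without the depth of the libraries, but the depth cancels between genes of 1 day. Relative to Adam12, Pmepa1 stood at 0.943, 2.04 and 1.73 in day order, values derived from the authors' deposited table. Pmepa1 and Adam12 thus lay close together at day 2 (a log2 difference of -0.08 with a counting error of at most 0.0674, SE) and apart at days 4 and 8, where Pmepa1 was further from 1. The shift of Pmepa1 against Adam12 between days 2 and 4 was 1.11 on the log2 scale, with a counting error of at most 0.112 (SE). Ctgf went the other way later: relative to Adam12 it was at 0.727 at day 4 and 1.03 at day 8. Hmga2 was at 0.820 relative to Adam12 at day 4 and 0.668 at day 8. The 3 genes listed at day 4 alone lay lowest relative to Adam12 on that day, Rhob at 0.525, Skil at 0.519 and Sphk1 at 0.462. Rhob and Skil differ from each other by less than their counting errors of at most 0.0918 and 0.0975 on the log2 scale (SE). These relations hold for either direction of the ratio, turned round, and rest on 1 library per condition and day.

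Of 236 genes listed at all 3 days, those whose 3 log2 ratios lay nearest to Pmepa1 (Euclidean distance) included Greb1, Lgr6, Sema7a and Hcar2, at distances of 0.17 to 0.65. Greb1, an oestrogen-responsive gene in human cells, had ratios of 5.55, 19.8 and 13.8 (the authors' deposited table, in day order), and Sema7a, a membrane-anchored semaphorin, had 6.77, 17.4 and 13.8. The larger term was as low as 61 for Greb1 and 2485 for Sema7a. Hcar2 had a larger term as low as 13, so few reads may stand behind it. Nearest to Adam12 were Fbxo40, Adamts16, Fam117a, Tmcc3 and Tmem268, at distances of 0.32 to 0.54. Fbxo40, Adamts16 and Fam117a, the 3 nearest, had larger terms as low as 7, 7 and 17 and so may rest on few reads. Tmcc3 and Tmem268 had larger terms of at least 639 and 2779; the authors' deposited table gives Tmcc3 ratios of 4.23, 9.75 and 9.54 in day order.

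The other genes of the pathway were counted over lists set by role. Of 44 SMAD targets in the list, 16 were listed at any day, 14 above 1 at each day listed and 2 below. Day 2 had 4 above and 1 below, day 4 had 14 above against 2, and day 8 had 9 above against 2, in tables with 50.0% on each side. Among all genes with a larger term of at least 41, 30.1%, 53.9% and 46.0% lay above 1 in day order. The lists were set with earlier results of these data known, so nothing is read from these counts. Without the 5 targets that belong to the 7 genes, 9 lay above and 2 below. Tnc, a matrix glycoprotein of growing and injured tissue, had ratios of 8.48, 20.7 and 8.95 (the authors' deposited table, in day order). Spsb1, an adaptor that turns over the type II TGFβ receptor, had 3.34, 17.5 and 18.2. Pdgfb, a growth factor for fibroblasts, reached 20.1 on day 8 per the authors' deposited table, and its day 4 entry had a larger term of 13.

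Several further targets lay close to the 7 genes in size at day 4; they were singled out after their values were seen. Lox, which crosslinks collagen, had 5.24 on that day per the authors' deposited table, beside Skil at 5.64. Wisp1, a relative of Ctgf in the CCN family, had 3.57, 11.1 and 8.30 in day order (the authors' deposited table), close to Adam12 at days 4 and 8.

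The targets below 1 were Acta2 and Timp3. Acta2, smooth muscle actin and a textbook TGFβ-induced gene of fibroblasts, lay 17.8-fold, 12.6-fold and 16.8-fold below 1 in day order (the authors' deposited table). Timp3, a matrix-bound protease inhibitor that is also a known target, lay 8.13-fold below 1 on day 4 and 12.8-fold below 1 on day 8, again per the authors' deposited table. These 2 genes lie opposite to the 7 genes, so no single direction of the ratio puts every listed SMAD target on the side that TGFβ is known to move it to.

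Of 17 feedback inhibitors and ligand traps, 4 were listed at any day. Fstl3, which binds activins, lay above 1 with 3.14, 13.8 and 5.83 in day order (the authors' deposited table). Its relative Fst, follistatin, was on the other side; the authors' deposited table puts it 7.34-fold below 1 on day 2 and 8.10-fold below 1 on day 8. The inhibitory SMAD genes Smad6 and Smad7, the SnoN relative Ski and the ubiquitin ligase genes Smurf1 and Smurf2 were not listed at any day.

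The tables together list 2091 genes by the size of their ratio, so nothing is read from how few genes of a list they hold. Of 13 SMADs and cofactors 0 were listed at any day. Of 11 receptors 2 were, Acvrl1 at day 2 and Acvr1c at day 8. Both lay below 1 with larger terms of 21 and 13, so they may rest on few reads. Of 22 genes for ligands and their activation, Inhba, which encodes an activin subunit, was listed on day 2 alone (3.22, the authors' deposited table), and Itgb6, a subunit of the integrin that activates latent TGFβ, lay below 1 at days 2 and 4 with larger terms of 17 and 11. Of 10 genes that TGFβ is known to repress in some cell types, 3 were listed, all at day 8 alone. Id1 and Id3, inhibitors of basic helix-loop-helix factors, lay 13.6-fold and 8.32-fold below 1 there, per the authors' deposited table. Adipoq stood at 5 with a larger term of 5.

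**Figure D3:**
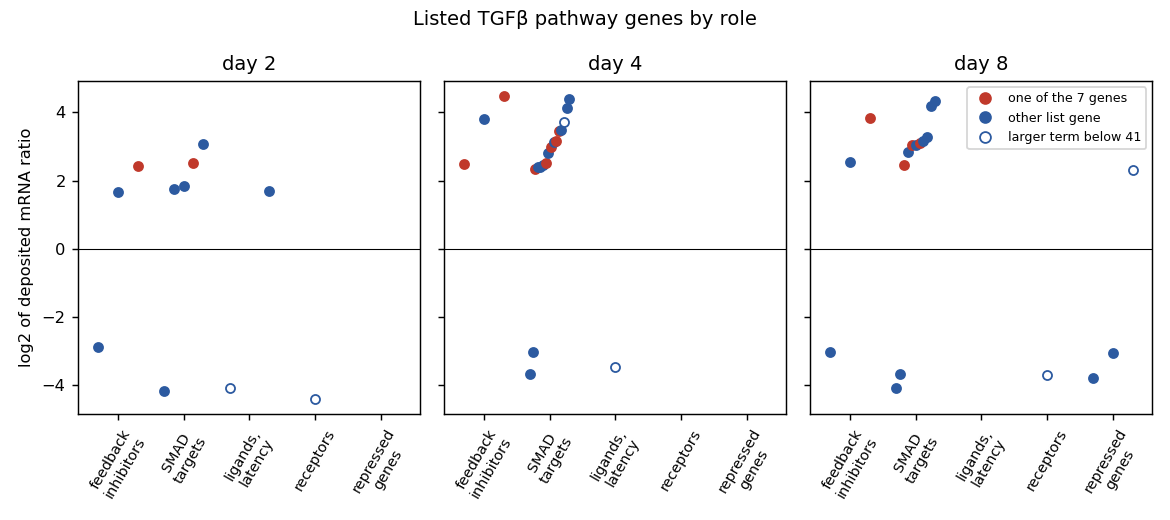
Log2 of the deposited mRNA ratio for every listed gene of 5 role lists at days 2, 4 and 8; each point is 1 gene, open where the larger term is below 41. The 7 genes all lie above 0, Acta2 and Timp3 lie below 0 among SMAD targets, and the repressed genes appear at day 8 alone.

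Markers of other cell types were looked up in the same tables, where 50.0% of the genes lay above 1 at each day. Of all genes with a larger term of at least 41, 30.1%, 53.9% and 46.0% lay above 1 in day order. Of 5 endothelial markers 4 were listed, all above 1 (Cdh5, Pecam1, Kdr and Tek), led by Cdh5 with 31, 63 and 65 in day order (the authors' deposited table), ratios that allow 0 reads in the denominator library. Of 7 epithelial markers 3 were listed, all above 1 (Krt8, Krt14 and Cldn4). Itgam, 1 of 6 leukocyte markers, lay below 1. Of 8 muscle and nerve markers 4 were listed, Des, Actc1 and Tubb3 above 1 and Map2 below. Among these genes, only Cdh5, Krt8 and Tubb3 had an entry with a larger term of at least 41. Nothing is read from how many markers lay on each side. Of 11 fibroblast markers, Fap alone was listed, at day 8, so the tables do not allow a check of the labelled cell type. The tables give no level per library, and the part of these genes in the ratios of the 7 genes was not tested.

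Values from the labelled miRNA libraries bear on the unnamed direction of the mRNA ratio. First, a miRNA table of the same authors holds log2 fold changes next to the RPM values of both libraries, and its finite values equalled the log2 of TGFβ over vehicle in 437 of 437 entries at day 2, 483 of 483 at day 4 and 487 of 487 at day 8 (within 0.01). The authors thus put TGFβ on top in that table, which does not fix the order in the mRNA tables. Second, miRNAs that lie inside a listed gene on the same strand are often cut from its transcript, so their labelled TGFβ over vehicle ratio can be set beside the unlabelled ratio of the gene.

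Of 78 such pairs of a gene entry and a miRNA over the 3 days, 46 were on the same side of 1. Among all measured miRNAs, 47.5% lay above 1 at day 2, 56.6% at day 4 and 50.1% at day 8. In 55 of the pairs the listed entry was the miRNA precursor's own gene, with a larger term below 41 in each; 27 of these were on the same side and 28 on the other. In 23 pairs it was another gene, and 19 of these were on the same side and 4 on the other. Where the 95% counting interval of the miRNA excluded 1, these were 16 of 25 precursor pairs and 13 of 13 pairs with another gene. The 13 come from 6 genes, and 6 of them from Col27a1, so they are not independent. Snord33, AI854517 and Rnf144a, also among the 13, had larger terms of 7, 5 and 13 and so may rest on few reads. The miRNA paired with AI854517, miR-9-5p, has 3 loci, so its reads need not come from that gene. Of pairs with another gene, 20 had a larger term of at least 41, 16 on the same side and 4 on the other. In these, miR-344-3p has 2 loci and is paired with both A230057D06Rik and A330076H08Rik, and miR-344d-3p has 3 loci. Their reads need not come from the paired gene, and the pairs are not independent.

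Col27a1, a fibrillar collagen gene, had ratios of 3.74, 6.43 and 7.45 in day order (the authors' deposited table). miR-455-3p, which lies inside it, had 80 reads with TGFβ and 28 with vehicle on day 2; on day 4 it had 828 with TGFβ and 84 with vehicle, and on day 8 it had 1920 with TGFβ and 80 with vehicle. Its scaled TGFβ over vehicle ratio was 2.08 (95% counting interval 1.34 to 3.33), 6.92 (5.52 to 8.76) and 9.06 (7.24 to 11.5) at the 3 days. Both Col27a1 and its miRNA thus lay above 1 at every day. The 7 genes lay above 1 where they were listed, which was at all 3 days for Pmepa1 and Adam12 alone.

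Vwa5b2 gives a pair on the other side. The authors' deposited table puts it 15.4-fold below 1 on day 8, and miR-1224-5p, which lies inside it, had 0 reads with TGFβ and 142 with vehicle on that day, 125-fold lower with 0 set to 3 counts. Odz4 (now Tenm4) went against this order: its ratio on day 4 was 5.94 (the authors' deposited table), while miR-708-5p had a scaled ratio of 0.854 (0.474 to 1.55) and miR-708-3p of 0.702 (0.320 to 1.54), both with intervals that include 1. The other genes in these pairs were Rnf144a, A230057D06Rik, A330076H08Rik, Snord33 and AI854517. A330076H08Rik and A230057D06Rik, both below 1, gave the other 2 opposite pairs through miR-344-3p at day 8, with 1.61 (0.907 to 3.04). Both pairs use the same 64 reads with TGFβ and 15 with vehicle. Read as TGFβ over vehicle, the mRNA ratios have Col27a1 and Vwa5b2 on the side of their labelled miRNAs. The 7 genes are then on the higher side with TGFβ, and Acta2 and Timp3 on the lower side, in reads not scaled for depth. The headers do not name the direction, and every direction given for the 7 genes keeps that condition.

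**Figure D4:**
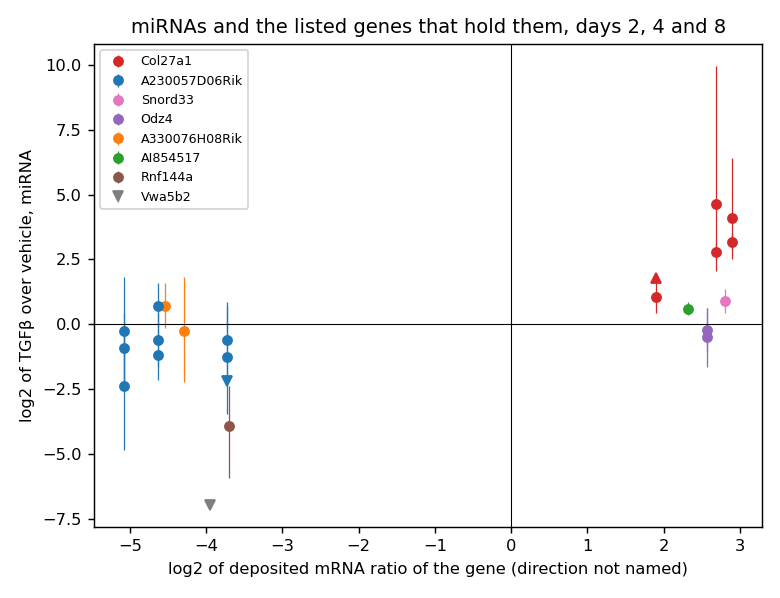
Log2 of TGFβ over vehicle for each miRNA (vertical, with 95% counting intervals) against log2 of the deposited mRNA ratio of the listed gene that holds it (horizontal), days 2, 4 and 8 together, precursor entries left out; triangles are miRNAs with 0 reads in 1 library, set to 3 counts. The Col27a1 points lie above 0 on both axes and the Vwa5b2 point, at 125-fold lower, below 0 on both.

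Hmga2 mRNA is a known target of the let-7 miRNAs, which bind its 3′ untranslated region and reduce its level. The seed match of let-7, CTACCTC, was found 4 times in the 3014-base 3′ untranslated region of Hmga2 (GENCODE transcripts, GRCm38, minus strand). It was found once each in those of Adam12 and Skil and not in those of Pmepa1, Ctgf, Rhob and Sphk1. Of 20644 genes with such a region, 9.18% held at least 1 match, and 12, with Hmga2 among them, held 4 or more. The let-7 sequences (RefSeq, GRCm38.p6, seed at bases 2 to 8 in capitals) and the 4 Hmga2 sites (seed match in capitals, 5′ to 3′) are shown because the seed of let-7a-5p, let-7b-5p and let-7i-5p pairs with each site; let-7j is shown because its seed differs and these sites hold no full match to it.
let-7a-5p: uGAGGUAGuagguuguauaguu
let-7b-5p: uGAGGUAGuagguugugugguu
let-7i-5p: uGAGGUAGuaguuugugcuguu
let-7j: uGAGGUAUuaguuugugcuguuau
Hmga2 site 1, chr10:120364224-120364245: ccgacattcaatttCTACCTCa
Hmga2 site 2, chr10:120362987-120363008: cccactcctcaataCTACCTCt
Hmga2 site 3, chr10:120362549-120362570: tgatttgcaaggaaCTACCTCc
Hmga2 site 4, chr10:120361691-120361712: atcaaaacacactaCTACCTCt

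Of the 10 measured let-7 miRNAs, 9 share the seed GAGGUAG and let-7j has GAGGUAU. At day 2, 8 of 10 had a TGFβ over vehicle ratio above 1 and 2 below (median log2 ratio 0.22), where 47.5% of all measured miRNAs lay above 1 and 52.5% below. At day 4, 4 were above and 6 below (median -0.13), where 43.4% of all lay below, and at day 8 all 10 were below (median -0.73), where 49.9% of all measured miRNAs lay below 1. The median over all measured miRNAs was -0.04, 0.20 and 0.01 at the 3 days.

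let-7b-5p lay lowest at each day: it had 5448 reads with TGFβ and 4587 with vehicle on day 2; on day 4 it had 7239 with TGFβ and 9851 with vehicle, and on day 8 it had 17613 with TGFβ and 17843 with vehicle. Scaled to library size, its ratio was 0.866 (95% counting interval 0.832 to 0.900), 0.516 and 0.373 (0.365 to 0.380) in day order. let-7i-5p, the most abundant of the family by the mean CPM of both libraries of each day, had scaled ratios of 1.16 (1.12 to 1.19), 0.824 (0.802 to 0.847) and 0.530 (0.520 to 0.541). Hmga2 was not listed at day 2 and had 8.90 and then 5.51 (the authors' deposited table, days 4 and 8). Whether let-7 has a part in the Hmga2 ratio was not tested. Scaled by total counts instead, 6 of 10 let-7 miRNAs were below 1 at day 2 and all 10 at days 4 and 8, so the difference in count between the later days is not seen with that scaling.

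**Figure D5:**
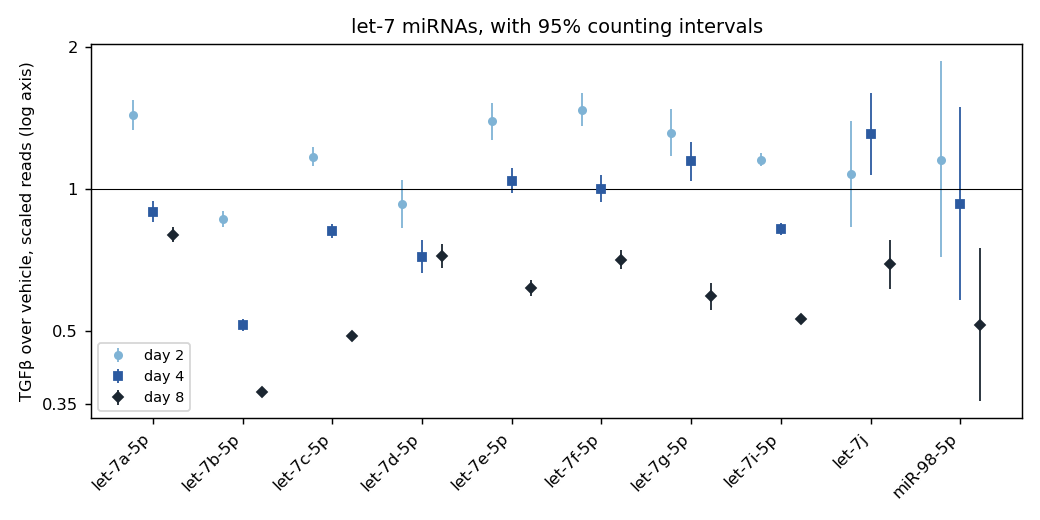
TGFβ over vehicle ratio of TMM-scaled reads (log axis) for 10 let-7 miRNAs at days 2, 4 and 8, with 95% exact counting intervals, 1 library per condition and day. At day 8 all 10 lie below 1, let-7b-5p lowest at 0.373.

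Promoter windows of 300 bases around a RefSeq start (GRCm38.p6) were at hand for Hmga2, Rhob and Sphk1 and are shown since all 3 genes lay above 1 at day 4. Capitals mark AGAC or its complement GTCT, the core of the SMAD-binding element, and TGAGTCA or its complement, an AP-1 motif; both strands were searched. The core AGAC was found 9 times in the Hmga2 window, 2 times in that of Rhob, and 0 to 4 times in the 5 windows of Sphk1. Of 32851 windows of the same length, 88% hold it at least once, with a median of 2, and 0.164% hold 9 or more. TGAGTCA was found in 2 overlapping Sphk1 windows, of which the downstream one is shown, and is held by 5.2% of all windows. The palindrome GTCTAGAC, held by 0.213% of windows, was found in none of these 7. A match describes letters only.
Hmga2, chr10:120476420-120476719, minus strand: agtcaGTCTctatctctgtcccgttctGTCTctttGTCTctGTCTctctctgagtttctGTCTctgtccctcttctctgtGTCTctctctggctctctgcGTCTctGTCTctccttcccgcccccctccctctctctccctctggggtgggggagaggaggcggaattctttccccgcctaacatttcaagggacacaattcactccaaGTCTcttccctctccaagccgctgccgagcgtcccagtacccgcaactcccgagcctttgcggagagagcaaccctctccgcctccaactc
Rhob, chr12:8499960-8500259, minus strand: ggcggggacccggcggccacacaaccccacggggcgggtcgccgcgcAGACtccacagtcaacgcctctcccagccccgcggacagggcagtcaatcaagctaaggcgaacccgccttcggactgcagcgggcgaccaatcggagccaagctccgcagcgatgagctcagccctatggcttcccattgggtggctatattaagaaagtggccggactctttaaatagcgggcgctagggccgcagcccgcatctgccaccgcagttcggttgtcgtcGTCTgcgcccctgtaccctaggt
Sphk1, chr11:116531661-116531960, plus strand: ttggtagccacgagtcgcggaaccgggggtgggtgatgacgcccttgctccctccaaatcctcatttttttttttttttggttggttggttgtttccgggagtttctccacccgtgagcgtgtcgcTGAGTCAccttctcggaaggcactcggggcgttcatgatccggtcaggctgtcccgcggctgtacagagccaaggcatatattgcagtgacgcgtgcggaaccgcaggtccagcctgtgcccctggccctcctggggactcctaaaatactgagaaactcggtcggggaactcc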

How the data were processed

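mRNA and miRNA of AKR-2B colonies were sequenced in 12 libraries, 1 per condition, day and kind of RNA. The genome build mm10 and edgeR 3.9 are named, per the submitters' processing notes, which give neither a role. No aligner or read counter is given in the sources used here. The authors deposited 1 mRNA ratio per gene and day, with no per-sample values and no named direction. The miRNA counts deposited by the authors are whole reads per mature miRNA, 108716 to 1387785 per library. A further table deposited by the authors holds RPM values and log2 fold changes for miRNAs.

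Each ratio was written as the simplest fraction that rounds to the deposited value of at most 11 characters; this step was tested on simulated data. Counting errors of log2 ratios were computed from the fewest reads. Symbols were matched to RefSeq names (884, 904 and 899 genes as given, 106, 84 and 93 as synonyms, 8, 10 and 6 unmatched at days 2, 4 and 8). miRNA counts were scaled with TMM factors from 309 miRNAs (edgeR 4.0.16, R 4.3.3), with total counts or DESeq2 1.42.0 size factors as alternatives, for miRNAs averaging 10 CPM or more. Intervals are exact conditional binomial and cover counting error only, and a count of 0 was set to 3 counts. Genes and coordinates come from GENCODE M21 on GRCm38, the same assembly as mm10.

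The members and lists were chosen with earlier results of these data known. By the rule for named genes, the 7 genes, up to 4 genes per list with the largest ratio, the 5 nearest patterns and the host genes are named; genes tied at the ends of the tables are given as counts. Lox, Wisp1 and Timp3 lie outside it. Some genes that the rule names are not reported here.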

Additional observations from a re-analysis of the deposited data

Results flagged for a closer look

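Among the let-7 miRNAs, 7 had a TGFβ over vehicle ratio on opposite sides of 1 at different days, with a counting interval that excludes 1 on at least 1 day on each side, with TMM scaling. Scaled by total counts, 3 did so (let-7a-5p, let-7e-5p and let-7f-5p), and with DESeq2 size factors 6 did, all but let-7j. The difference between days was not tested, since each condition and day had 1 library. With TMM the ratios at days 2, 4 and 8 were 1.44, 0.896 and 0.802 for let-7a-5p. For let-7c-5p they were 1.17, 0.816 and 0.489. The values of let-7e-5p were 1.39, 1.04 and 0.617, and those of let-7f-5p 1.47, 1.00 and 0.709. let-7g-5p stood at 1.32, 1.15 and 0.594, and let-7i-5p at 1.16, 0.824 and 0.530. let-7j, with the differing seed, stood at 1.08, 1.31 and 0.693.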

How the results depend on the processing

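Read as vehicle over TGFβ, 0 of the 7 genes lie above 1 at days 2, 4 and 8. Division by the centre of each table's bounds, all below 1, could not change the counts of the 7 genes. A stricter minimum of 50 reads in 1 library, under the larger count of each of the 7 genes, could not either. Both settings say nothing on stability. A tolerance 10 times wider left the counts with many reads the same. With only larger terms of at least 41, 0 ligand genes were below 1 at days 2 and 4, 0 receptors below at days 2 and 8, and 0 repressed genes above at day 8. The entries left out had larger terms below 41 and may rest on few reads. Symbols without synonyms changed no list count by over 1.5 times. Total-count scaling shifted every miRNA log2 ratio by -0.26, -0.47 and -0.34 at days 2, 4 and 8, which puts 6 let-7 miRNAs below 1 at day 2 (2 with TMM) and 10 at day 4 (6 with TMM). DESeq2 size factors moved no let-7 or pair count by over 1.5 times, nor did total counts for the pairs. With no minimum CPM, 20 pairs were on the same side at day 8 (13 with it), since more pairs enter. No paired analysis was possible because each group has 1 library and the ratios carry no per-sample values.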

Other observations

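The ends of the mRNA tables can rest on very low counts: a ratio of 3 can be as little as 1 read against 0, and 186 genes share it at day 2. At the lower end, 58 genes at day 2, 48 at day 4 and 4 at day 8 share the value of 7-fold lower.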
